A study of Canis lupus familiaris with 10 samples.

Results

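The HOX genes encode homeodomain transcription factors that give cells their place along the axis from head to tail. On the Canine_2 array, 21 HOX genes were measured in cultured hemangiosarcoma cells, out of 15115 genes that the array's annotation names. They were chosen by symbol, as every probe set annotated to a single gene of the HOXA, HOXB, HOXC or HOXD cluster, which gave 30 of 42924 probe sets besides the controls. A further probe set, shared by HOXC6 and HOXC4, was left out. Hemangiosarcoma is a tumor of blood vessel forming cells, and the study asked whether the cells carry an imprint of the dog's breed. Every culture was grown from a spleen tumor of a different pet dog and was frozen at an early passage, and 1 array was made per culture. The Golden Retriever group held 6 dogs, with CHAD-G4 (male, 10 years), CHAD-G6 (female, 12), CHAD-G8 (male, 12), Frog (female, 10), Journey (female, 11) and Tucker (male, 6). The non-Golden Retriever group held 3 male dogs, the Portuguese Water Dog CHAD-P9 (9 years), the Dalmatian Dal-4 (7) and the Rottweiler Joey (9). The F1 dog DD-1, a male of 9 years, was a cross of Golden Retriever and Great Pyrenees. Frog and Journey were distant relatives. No treatment was given, no culture was arrayed again, and each group contrast therefore carries the differences of sex, age and culture between its dogs.

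HOX genes lie in clusters on separate chromosomes, and within a cluster their order along the DNA matches the order of the body regions in which they act. Genes with low paralog numbers act toward the head, those with middle numbers in the trunk, and those with high numbers toward the tail, the limb ends and the urogenital tract. Paralogs, which are genes with the same number in different clusters, often share functions. Connective tissue and vessel cells are known to keep much of their HOX pattern in culture, so the pattern is read as a record of anatomical origin.

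The array covers the clusters unevenly. The dog assembly UU_Cfam_GSD_1.0 lists 38 HOX genes, and 17 of them have no probe set of their own here. Probe sets covered 7 of 11 genes of HOXA on chromosome 14, 8 of 10 of HOXB on chromosome 9, 5 of 9 of HOXC on chromosome 27 and 1 of 8 of HOXD on chromosome 36. In that assembly the annotated span of HOXA3 overlaps those of HOXA4, HOXA5 and HOXA6, that of HOXB3 overlaps HOXB4, HOXB5 and HOXB6, that of HOXB8 overlaps HOXB9, and that of HOXC4 overlaps HOXC5, HOXC6, HOXC8 and HOXC9, so signal in these stretches may come from transcripts of more than 1 gene. By their names, 6 of the 30 probe sets may also bind other transcripts, among them the single ones of HOXA2, HOXA3 and HOXB9.

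Signals are log2 values from robust multiarray averaging (RMA), a method that summarizes the probes of a probe set. Without detection calls, a probe set was described as above or below the 40th percentile of its own array, which lay between 5.02 and 5.16 in the 10 dogs. A place above this percentile is not a call of expression: CD3E, a T cell receptor subunit, lay above it in every dog at 6.19 to 6.61, while the leukocyte genes PTPRC, ITGAM and CD79A lay at or below it in every dog. Levels of different probe sets cannot be set against each other. Dal-4 and CHAD-G4 lay furthest from the other dogs over all tested probe sets, with mean distances of 145.0 and 138.7 against 101.4 to 124.2 for the rest. Dal-4 is male by its record, but its signal at an EIF2S3 probe set was 2.95, near the females at 3.08 to 3.33 and unlike the other males at 10.15 to 10.60. At the other EIF2S3 probe sets Dal-4 had 12.56 and 11.47, inside the other males at 12.22 to 13.18 and 10.89 to 12.19. The females had 12.98 to 13.23 and 12.01 to 12.12 there, so these probe sets did not fully separate the sexes. In these bulk cultures fewer cells of a type and less RNA per cell cannot be told apart. Of 12 endothelial markers, CDH5, KDR, TIE1, EGFL7, CLDN5 and ROBO4 lay above the percentile in every dog. PECAM1, TEK and ESAM lay at or below it in every dog, and VWF, FLT1 and ERG were mixed. The log2 of the summed signal of the 12 was 9.36 to 10.22 in Golden Retrievers, 9.23 to 9.98 in non-Golden Retrievers and 9.71 in DD-1. The 9 fibroblast markers lay above the percentile in every dog, except LUM in Dal-4, and their summed signal was 16.34 to 16.74, 16.02 to 16.52 and 16.60.

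The measured HOX genes split into a set above the percentile in every dog, held mostly by anterior and central paralogs, and a set below it in every dog, held mostly by posterior paralogs. A gene with several probe sets stands here with the one of highest mean signal. In all 10 dogs, 9 of the 21 genes lay above the percentile: HOXA3, HOXA4, HOXA5, HOXA9, HOXB4, HOXB6, HOXB7, HOXC4 and HOXC12. Over all named genes of the array the share was 64.0%. Below it in every dog were 7 of the 21, HOXA13, HOXB1, HOXB8, HOXB9, HOXB13, HOXC10 and HOXC13, beside 22.1% of all named genes. The remaining 5, HOXA2, HOXA7, HOXB2, HOXC8 and HOXD10, lay above it in some dogs.

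Among the 7 anterior genes with paralog numbers up to 4, 4 lay above the percentile in all dogs and 1 in none. Among the 6 central genes with numbers 5 to 8, 3 did and 1 in none. Among the 8 posterior genes with numbers 9 to 13, 2 did and 5 in none. Over all named genes, 64.0% lay above it in all dogs and 22.1% in none. In no region did the count above in all dogs exceed the share over all named genes. All 3 measured members of paralog group 4 (HOXA4, HOXB4 and HOXC4) were above in every dog, and all 3 of paralog group 13 (HOXA13, HOXB13 and HOXC13), the genes of the tail end, in none. By cluster, 4 of 7 HOXA genes, 3 of 8 HOXB genes, 2 of 5 HOXC genes and 0 of 1 HOXD gene were above in all dogs. Each dog had 11 or 12 of the 21 genes above the percentile, with 11 in CHAD-G4, CHAD-G8, CHAD-P9 and Dal-4, so the groups did not separate in this count. Without Dal-4 the counts above in all dogs and in none were still 9 and 7. The cut itself moved them: with the 50th percentile in its place, 5 genes lay above in all dogs, and with the 30th, 4 lay at or below in all. Shares over all named genes were not computed at these cuts, so the 2 counts show only that the calls depend on the cut.

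**Figure D1:**
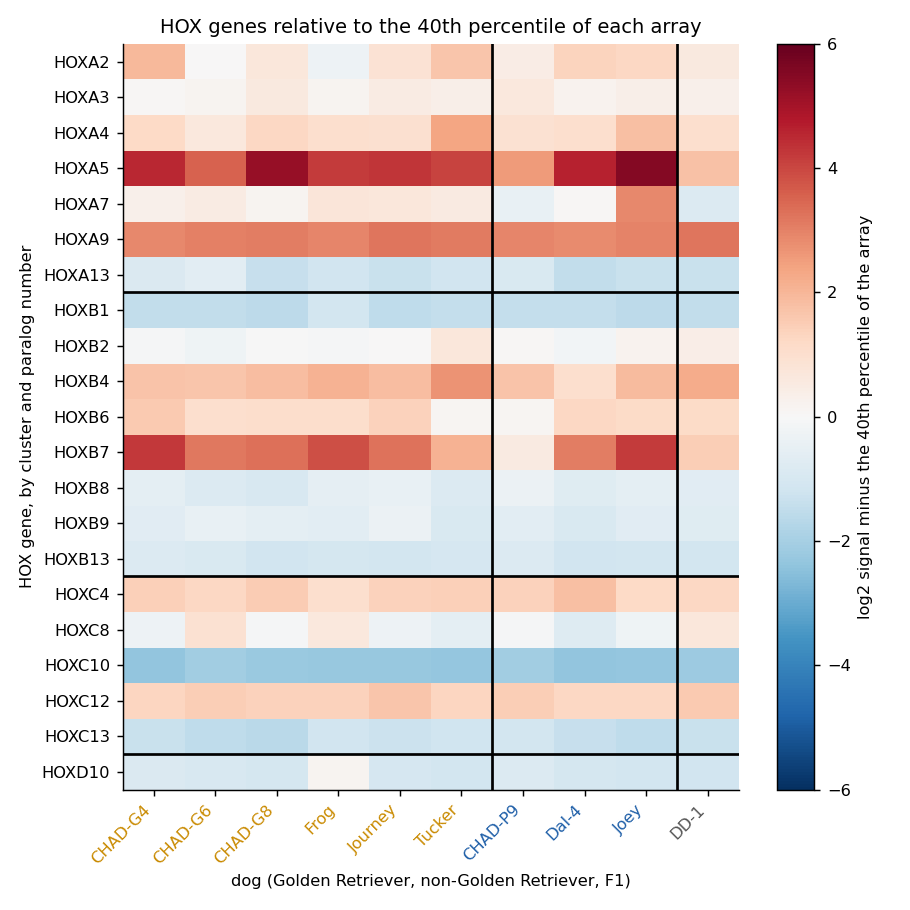
Log2 signal minus the 40th percentile of the array (color scale, log2 units) for 21 HOX genes (vertical axis, by cluster and paralog number) in the 10 dogs (horizontal axis, Golden Retrievers, non-Golden Retrievers and the F1 dog between the lines), with 1 probe set per gene. Red marks signals above the percentile and blue those below: 9 genes are red in all dogs and 7 are blue in all, among them HOXA13, HOXB13 and HOXC13, and colors should be compared between dogs within a gene.

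The anterior genes, which act in the hindbrain, neck and upper trunk, had their widest ranges over the dogs at HOXA2, HOXB4 and HOXA4. HOXA2 (gene 609592), a regulator of hindbrain and branchial arch identity, had signals of 7.01 in CHAD-G4, 5.12 in CHAD-G6, 5.81 in CHAD-G8, 4.75 in Frog, 6.01 in Journey and 6.74 in Tucker. It had 5.59 in CHAD-P9, 6.36 in Dal-4, 6.28 in Joey and 5.70 in DD-1. Frog was the one dog under its percentile, and the non-Golden Retrievers fell inside the range of the Golden Retrievers. HOXA4 (gene 482369), which acts in the neck vertebrae, had 6.28 in CHAD-G4, 5.70 in CHAD-G6, 6.37 in CHAD-G8, 6.07 in Frog, 6.11 in Journey and 7.42 in Tucker. It had 6.03 in CHAD-P9, 6.03 in Dal-4, 6.84 in Joey and 6.09 in DD-1. Tucker stood highest by 0.58 log2 units, and this dog was also highest at the second HOXA4 probe set, which lay at 4.51 to 5.52 and above the percentile in 3 dogs.

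HOXB4 (gene 608915), which is also known for its part in blood stem cell growth, had 6.80 in CHAD-G4, 6.77 in CHAD-G6, 7.02 in CHAD-G8, 7.13 in Frog, 7.01 in Journey and 7.79 in Tucker. It had 6.83 in CHAD-P9, 6.03 in Dal-4, 6.94 in Joey and 7.34 in DD-1. Tucker was again the highest dog and Dal-4 the lowest, and the other non-Golden Retrievers lay among the Golden Retrievers. HOXC4 (gene 486498) varied less, from 6.04 in Frog to 6.85 in Dal-4, with 6.48 in CHAD-G4, 6.33 in CHAD-G6, 6.67 in CHAD-G8, 6.56 in Journey, 6.52 in Tucker, 6.52 in CHAD-P9, 6.21 in Joey and 6.34 in DD-1. Dal-4, the lowest dog at HOXB4, was the highest at HOXC4, so these paralogs did not order the dogs alike. HOXA3, a gene of thymus, parathyroid and carotid development, lay just above the percentile in each dog at 5.15 to 5.77. HOXB2 straddled the percentile at 4.81 to 5.74, with Tucker highest once more and 5 dogs above. HOXB1, a hindbrain gene, was below it throughout at 3.44 to 3.92.

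The central genes, which pattern the trunk, held the widest spread between dogs. HOXA5 (gene 482370), which acts in lung, gut and the cervical to thoracic transition, had 9.60 in CHAD-G4, 8.62 in CHAD-G6, 10.38 in CHAD-G8, 9.26 in Frog, 9.46 in Journey and 9.12 in Tucker. It had 7.69 in CHAD-P9, 9.66 in Dal-4, 10.55 in Joey and 6.87 in DD-1. DD-1 and CHAD-P9 lay below all others, Joey lay highest, and the non-Golden Retrievers therefore held both ends of the purebred range. HOXB7 (gene 608962), a trunk gene often studied in tumor growth and vessel formation, had 9.29 in CHAD-G4, 8.27 in CHAD-G6, 8.44 in CHAD-G8, 8.90 in Frog, 8.44 in Journey and 7.17 in Tucker. It had 5.68 in CHAD-P9, 8.08 in Dal-4, 9.23 in Joey and 6.58 in DD-1. CHAD-P9, DD-1 and Tucker were the lowest dogs, in this order, and CHAD-G4 and Joey the highest. The second HOXB7 probe set had the same 3 dogs lowest, at 5.05 in CHAD-P9, 5.44 in Tucker and 5.57 in DD-1, against 6.11 to 6.99 in the rest.

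HOXA7 (gene 482371), a neighbor of HOXA5 on chromosome 14, had 5.37 in CHAD-G4, 5.58 in CHAD-G6, 5.32 in CHAD-G8, 5.75 in Frog, 5.84 in Journey and 5.63 in Tucker. It had 4.66 in CHAD-P9, 5.10 in Dal-4, 7.90 in Joey and 4.26 in DD-1. All Golden Retrievers lay within a narrow band above the percentile, Joey lay 2.06 log2 units above the next dog, and CHAD-P9 and DD-1 lay below the percentile. The same 2 dogs thus had the lowest signals at HOXA5, HOXA7 and the first HOXB7 probe set, on 2 chromosomes. HOXB6 (gene 491056), between HOXB4 and HOXB7 on chromosome 9, had 6.65 in CHAD-G4, 6.08 in CHAD-G6, 6.21 in CHAD-G8, 6.10 in Frog, 6.54 in Journey and 5.18 in Tucker. It had 5.22 in CHAD-P9, 6.25 in Dal-4, 6.16 in Joey and 6.26 in DD-1. Tucker and CHAD-P9 were close to the percentile, while DD-1, low at HOXB7, was not low at HOXB6. Tucker held the highest signal at HOXB4 and the lowest at HOXB6, so genes of the same cluster did not follow a common order of dogs. The second HOXB6 probe set lay below the percentile in every dog at 3.34 to 3.76, so the gene rests on 1 probe set.

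Marker levels of other cell types moved with a few of these dogs, and their part in the HOX signals was not tested. CHAD-P9 had the lowest summed signal of the 5 epithelial or mesothelial genes measured, at 8.74 against 10.36 to 13.59 in the others, and its keratin gene KRT8 was at 3.82, below the percentile, where the others had 9.45 to 11.67. KRT18, the partner of KRT8, went the other way, at 8.40 and above the percentile in CHAD-P9 but below it in CHAD-G4 at 3.57, CHAD-G6 at 4.30 and Dal-4 at 3.93. DD-1, which shared the low HOXA5 and HOXA7 signals, had 12.60 for this list and 11.67 for KRT8. The adhesion gene EPCAM lay above the percentile in Joey at 8.87 and Tucker at 8.03 alone. CDH1 lay below it in all dogs. CHAD-G4, highest at HOXA2, HOXB6 and the first HOXB7 probe set, had the lowest summed signal of 5 smooth muscle genes, at 13.02 against 14.12 to 15.26, with ACTA2 at 6.39 against 9.73 to 14.13. TAGLN at 12.97 and MYH11 at 4.54 were also lowest in CHAD-G4. CNN1 was lowest in Joey, at 5.11 against 5.86 in CHAD-G4, and DES in CHAD-G6, at 6.46 against 6.93 in CHAD-G4. Tucker and CHAD-P9, low at HOXB6 and HOXB7, had the highest summed signals of 8 leukocyte genes, at 11.29 and 11.23 against 9.10 to 11.08. Most of these sums was the signal of LCP1, at 11.03 in Tucker and 10.97 in CHAD-P9. CD14 was highest in Journey at 7.98, and CD68 in CHAD-G8 at 6.98.

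HOXC8, a trunk and forelimb gene, lay near the percentile at a probe set under gene 607052, a number not in the assembly's table. It had 4.77 in CHAD-G4, 5.99 in CHAD-G6, 5.09 in CHAD-G8, 5.70 in Frog, 4.86 in Journey and 4.47 in Tucker. It had 5.07 in CHAD-P9, 4.25 in Dal-4, 4.78 in Joey and 5.79 in DD-1. CHAD-G6, Frog and DD-1 lay above the percentile and no non-Golden Retriever did, but CHAD-P9 was higher than CHAD-G4, Journey and Tucker. The HOXC8 probe set under gene 607625, which the table holds, was at 3.41 to 3.79 and below the percentile in all dogs, so the mixed pattern rests on the unmatched number. HOXB8, the neighbor of HOXB7, was at 4.17 to 4.77 and below the percentile throughout.

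**Figure D2:**
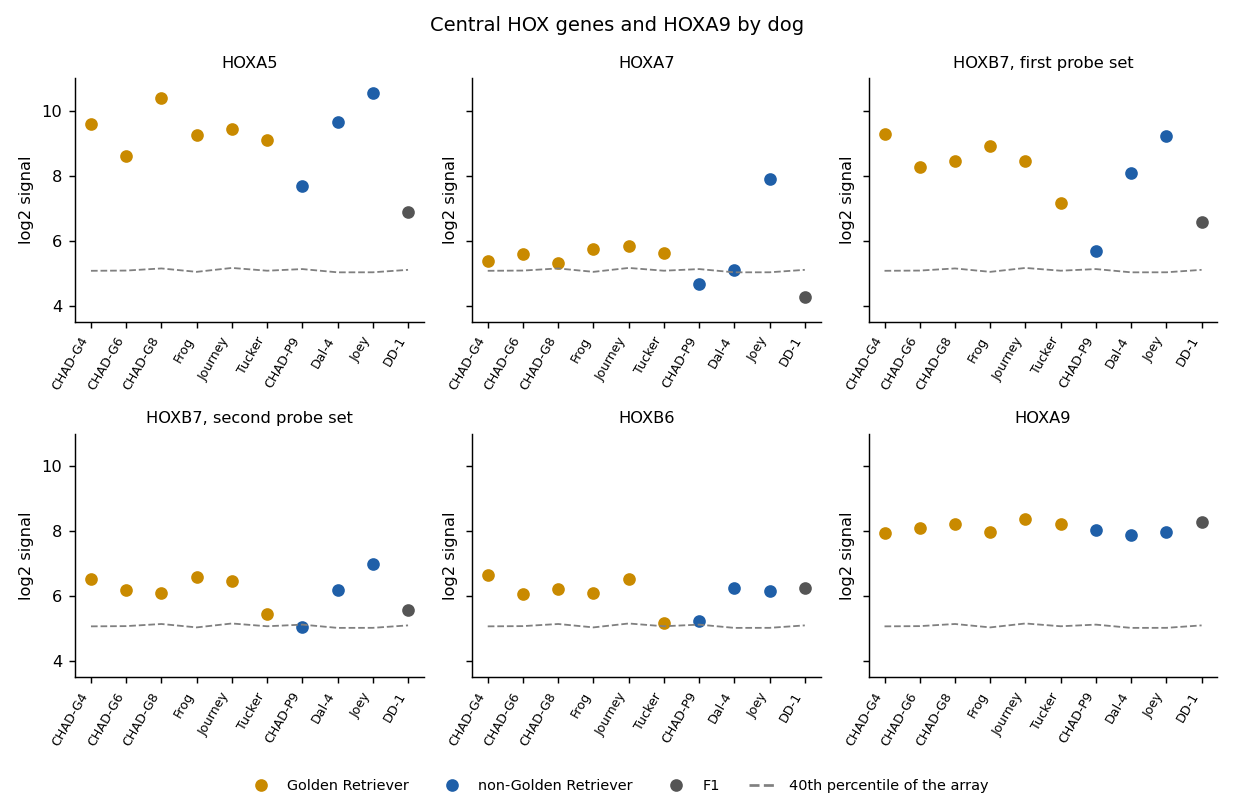
Log2 signal (vertical axes) of HOXA5, HOXA7, both HOXB7 probe sets, HOXB6 and HOXA9 in each dog (horizontal axes), with colors for the groups and a dashed line at the 40th percentile of each array, and 1 point per dog. DD-1 at 6.87 and CHAD-P9 at 7.69 are lowest for HOXA5, Joey at 7.90 stands alone for HOXA7, and all dogs lie between 7.88 and 8.37 for HOXA9.

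Of the posterior genes, HOXA9 and HOXC12 were steady between dogs and HOXD10 lay above the percentile in a single dog. HOXA9 (gene 482372), a gene of blood stem cells and of endothelial cells, had 7.96 in CHAD-G4, 8.11 in CHAD-G6, 8.22 in CHAD-G8, 7.99 in Frog, 8.37 in Journey and 8.21 in Tucker. It had 8.05 in CHAD-P9, 7.88 in Dal-4, 7.98 in Joey and 8.30 in DD-1. CHAD-P9 and DD-1, low at HOXA5 and HOXA7 in the same cluster, were not low at HOXA9. A second HOXA9 probe set lay at 6.56 to 7.19 and ordered the dogs differently, with CHAD-G4 second highest where it was second lowest at the first. The third lay at 4.43 to 5.37 and above the percentile in 1 dog.

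HOXC12 (gene 486502), a gene of the tail region and hair follicle, had 6.35 in CHAD-G4, 6.56 in CHAD-G6, 6.50 in CHAD-G8, 6.40 in Frog, 6.83 in Journey and 6.38 in Tucker. It had 6.61 in CHAD-P9, 6.26 in Dal-4, 6.25 in Joey and 6.66 in DD-1. The dogs formed a narrow band, and the other probe sets of HOXC12 lay below the percentile in all dogs, at 4.82 to 5.13 and 3.47 to 3.77. The HOXC12 signal above the percentile therefore rests on 1 of 3 probe sets, and it is the one posterior HOXC gene of the 3 measured that was above it. HOXC10 at 2.68 to 3.03, HOXC13 at 3.51 to 4.02, HOXA13 at 3.55 to 4.43, HOXB13 at 3.88 to 4.29 and HOXB9 at 4.11 to 4.79 were below it in every dog.

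HOXD10, a limb and lower trunk gene that is described as an inhibitor of endothelial migration, is the sole HOXD gene here and has a probe set under each of 2 gene numbers. Under gene 488415, a number not in the assembly's table, it had 3.12 in CHAD-G4, 3.43 in CHAD-G6, 3.33 in CHAD-G8, 6.53 in Frog, 3.18 in Journey and 3.05 in Tucker. It had 3.07 in CHAD-P9, 2.98 in Dal-4, 3.09 in Joey and 3.17 in DD-1. Under gene 609973 it had 5.21 in Frog and 3.92 to 4.28 in the other dogs. Frog was above the percentile at both probe sets and every other dog below it, Frog's relative Journey included. The gap to the next dog was 3.10 log2 units under gene 488415. Under gene 609973 it was 0.93, and Frog lay near its percentile of 5.04. The wide gap therefore rests on the unmatched number. Over the array, 0.126% of probe sets lay above the percentile in 1 dog only and by 3 log2 units or more over the next, among them 1 of the 30 HOX probe sets, and Frog had 2 such signals in all. The cut of 3 log2 units lies just under the gap of 3.10 seen here, so this share is a description and not a measure of rarity. Frog's culture was arrayed once, so the spread of a repeat is not known.

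**Figure D3:**
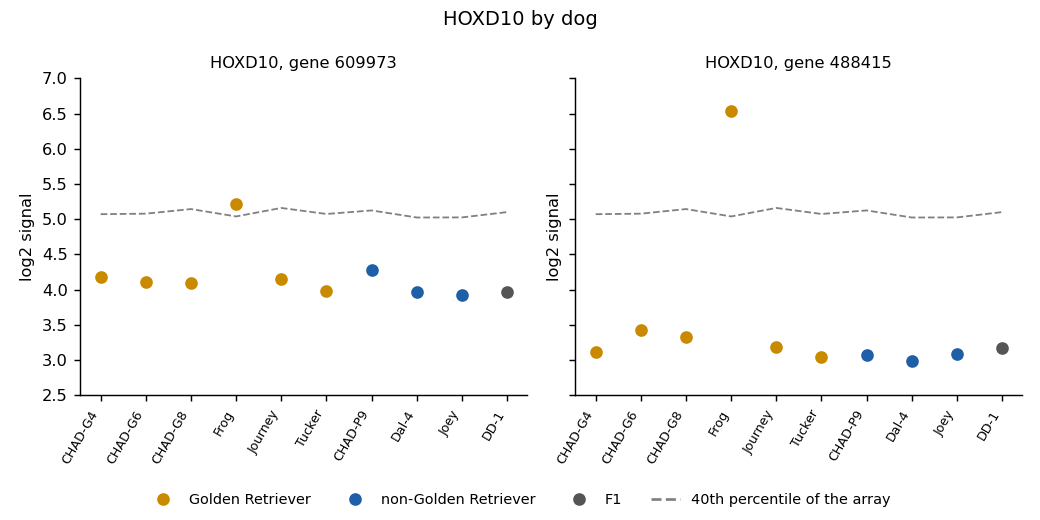
Log2 signal (vertical axis) of the HOXD10 probe sets under gene numbers 609973 (left) and 488415 (right) in each dog (horizontal axis), with 1 point per dog, colors for the groups and a dashed line at the 40th percentile of each array. Frog lies above the line in both panels, at 5.21 and 6.53, and the other 9 dogs lie below it.

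No tested HOX gene differed between the breed groups at the thresholds used. Of the 30 probe sets, 15 passed the filter for the test, which asked for a signal above the percentile on at least 3 of the 9 arrays, and 62.4% of all probe sets did. HOXC8, HOXD10 and the 7 genes below the percentile in every dog did not pass it and were not tested. By limma, with 6 Golden Retrievers against 3 non-Golden Retrievers and DD-1 left out, 0 of 15 HOX probe sets had an adjusted p under 0.05, where 0.00373% of all tested probe sets did. At an unadjusted p under 0.05 the count was also 0 of 15, where 6.33% of all tested probe sets passed, and the methods' t-test gave 0 at either threshold. The adjusted p-values from limma ran from 0.784 to 0.994. In none of the 15 did the groups fail to overlap, against 2.46% over all tested probe sets.

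The fitted differences, Golden Retriever minus non-Golden Retriever, were above 0 for 10 HOX probe sets and below 0 for 5, and ran from -0.31 to 0.75 log2 units. Their median was 0.10, against -0.02 over all tested probe sets, and it was -0.08 without CHAD-P9. HOXB4 had the smallest p, at 7.08 ± 0.372 (SD, n = 6) in Golden Retrievers against 6.60 ± 0.497 (SD, n = 3) for the other breeds, and a fitted difference of 0.48 log2 units (SE 0.271, 95% interval -0.12 to 1.09, limma adjusted p = 0.784). Without Dal-4, its lowest dog, that difference was 0.20. HOXA9 averaged 8.14 ± 0.155 (SD, n = 6) against 7.97 ± 0.0862 (SD, n = 3), and its difference was 0.17 (SE 0.133, 95% interval -0.13 to 0.47, limma adjusted p = 0.831). HOXC12 had a difference of 0.13 (SE 0.153, limma adjusted p = 0.899) and HOXC4 one of -0.09 (SE 0.185, limma adjusted p = 0.951).

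For the genes with wide spread between dogs the intervals were wide. HOXB7 averaged 8.42 ± 0.719 (SD, n = 6) against 7.67 ± 1.81 (SD, n = 3), and its difference was 0.75 (SE 0.704, 95% interval -0.83 to 2.34, limma adjusted p = 0.863). The second HOXB7 probe set had a difference of 0.15 (SE 0.402). HOXA5 averaged 9.41 ± 0.586 (SD, n = 6) against 9.30 ± 1.46 (SD, n = 3), with a difference of 0.10 (SE 0.574, 95% interval -1.18 to 1.39, limma adjusted p = 0.983). HOXA7 averaged 5.58 ± 0.205 (SD, n = 6) against 5.89 ± 1.76 (SD, n = 3), with a difference of -0.31 (SE 0.591, 95% interval -1.63 to 1.02, limma adjusted p = 0.949). Single non-Golden Retrievers decided these values. Without Joey the difference was 0.70 for HOXA7 (SE 0.200, limma adjusted p = 0.841) and 1.54 for HOXB7 (SE 0.668, limma adjusted p = 0.841). These were the 2 HOX probe sets that then reached an unadjusted p under 0.05, where 1571 of 26787 probe sets over the array did. Without CHAD-P9 it was -0.70 for HOXA5 and -0.24 for HOXB7, and without Dal-4 it was 0.29 for HOXA5, -0.70 for HOXA7 and 0.96 for HOXB7. HOXB6 had 0.25 (SE 0.342, 95% interval -0.52 to 1.02), -0.08 without CHAD-P9. HOXA2 had -0.17 (SE 0.487), and HOXA4 had 0.02 (SE 0.352).

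The 15 HOX probe sets tested had a median SD of 0.449 over the 10 dogs, against 0.328 over all tested probe sets, and a median SE of 0.271 against 0.225. The spread between dogs was thus wider at the median HOX probe set than at the median of all.

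**Figure D4:**
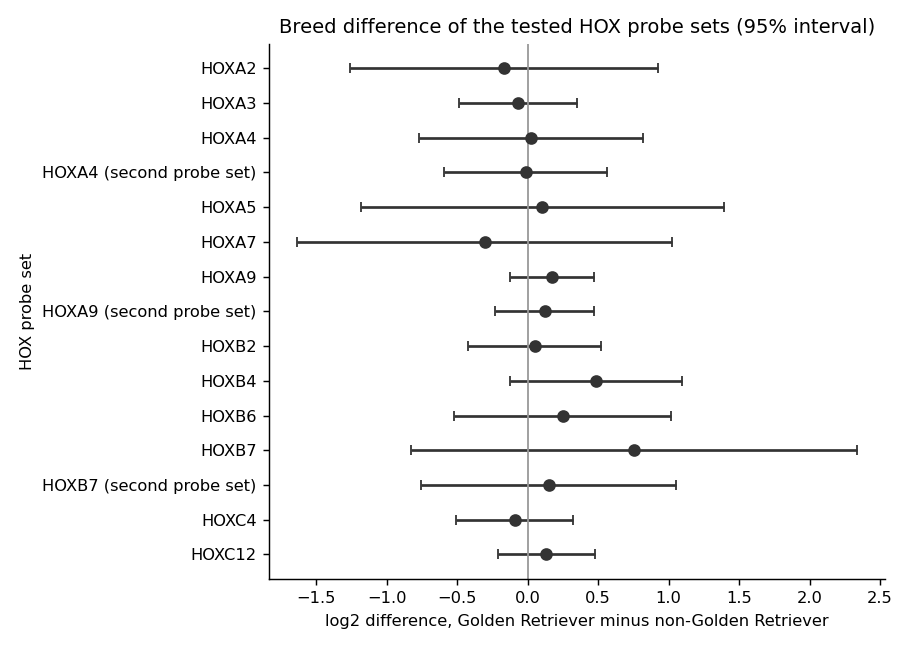
Fitted breed difference in log2 units, Golden Retrievers less the other breeds (horizontal axis), with its 95% interval from limma (bars) for the 15 HOX probe sets tested (vertical axis), 6 dogs against 3. Every interval includes 0, and the widest, that of HOXB7, runs from -0.83 to 2.34.

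HOX proteins bind DNA together with partner proteins of the TALE homeodomain family. For this and the following gene lists, 64.0% of all named genes lay above the percentile in all dogs and 22.1% in none, and 6.33% of all tested probe sets had an unadjusted p under 0.05. Of 9 such genes, 7 had a probe set of their own, 4 lay above the percentile in all dogs (PBX3, MEIS1, MEIS2 and MEIS3) and 1, PBX2, in none. None of the 5 tested passed at an adjusted p under 0.05 or at an unadjusted p under 0.05. PBX3 had 7.63 to 8.29 in Golden Retrievers and 8.17 to 8.45 for the other breeds, with a difference of -0.35 (SE 0.167, limma adjusted p = 0.775). MEIS1, a partner of HOXA9 in blood cell leukemia, had a difference of 0.56 (SE 0.273, limma adjusted p = 0.776). CHAD-G4 was the highest dog at MEIS1, at 8.76 against 7.06 to 8.27, and the lowest at MEIS2, at 8.80 against 10.03 to 10.93.

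The chromatin proteins that keep HOX clusters silent or active were above the percentile in every dog. This held for all 16 Polycomb genes measured, the repressors, of 19 listed, and for all 11 genes of the Trithorax group and H3K27 demethylases, which oppose them. At an adjusted p under 0.05, 0 genes of either list passed, and at an unadjusted p under 0.05, 1 of 16 and 1 of 11 did, counts near the 6.33% over the array at these list sizes. These were CBX7, a Polycomb reader subunit, with a difference of 0.29 (SE 0.120, limma adjusted p = 0.772), and RBBP5, a subunit of the H3K4 methyltransferase complexes, with -0.75 (SE 0.279, limma adjusted p = 0.772). SUZ12, a core subunit of Polycomb repressive complex 2, had -0.85 (SE 0.383, limma adjusted p = 0.772), and KDM6A, an H3K27 demethylase, had 0.21 (SE 0.290). RBBP5 stood at 8.87 in Dal-4 against 6.99 to 7.83 in the other dogs. RBBP4 and PSIP1, with the highest mean signal of the repressor and activator lists, had differences of 0.13 (SE 0.260) and -0.05 (SE 0.280).

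Upstream regulators of HOX genes were split. Of 22 measured genes among retinoic acid receptors and enzymes, CDX factors and ParaHox genes, 10 lay above the percentile in all dogs and 10 in none. Those in none included CDX1, CDX2 and CDX4, the factors that switch on central HOX genes in the embryo, at 2.94 to 5.08, and the ParaHox genes PDX1, GSX1 and GSX2 at 3.31 to 4.13. The retinoic acid receptor RARA was above in every dog at 7.36 to 9.63, with a difference of 0.53 (SE 0.472, limma adjusted p = 0.859). GMNN, a replication licensing inhibitor that also binds HOX proteins, had -0.31 (SE 0.314). None of the 11 tested passed at an unadjusted p under 0.05.

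Genes that mark organ and body regions were read beside the HOX pattern. Of 13 genes of spleen mesenchyme and of the splanchnic layer that covers the gut, 11 were measured and 5 lay above the percentile in all dogs: NKX2-5, BARX1, FOXF1, GATA6 and NR2F2. TLX1 and NKX3-2, both needed for the spleen to form, were below it in all dogs at 4.36 to 4.96 and 3.22 to 3.95. WT1, a gene of mesothelium and spleen formation, lay above it in CHAD-G4 at 6.28, Dal-4 at 6.03 and Joey at 6.89, and was at 4.12 to 5.04 in the others (log2 difference -0.92, SE 0.615, limma adjusted p = 0.808). CHAD-P9 alone was above it for TCF21, a gene of spleen and visceral mesenchyme, at 6.31 against 3.75 to 4.36, and for GATA4, a heart and foregut gene, at 5.91 against 3.44 to 4.94. The dog with the lowest HOXB7 signal was thus the one with these signals, which 1 culture cannot tie together. FOXF1, 1 of 6 tested at an unadjusted p under 0.05 (6.33% over the array), had a difference of -0.73 (SE 0.128, limma adjusted p = 0.696). Its groups did not overlap, at 6.57 to 6.82 in Golden Retrievers and 7.24 to 7.57 in non-Golden Retrievers, as for 2.46% of all tested probe sets. The study named FOXF1 in its breed signature after its own correction for multiple testing. BARX1, a stomach and spleen gene, had a difference of 0.70 (SE 0.578). BARX1 ranged from 5.30 in CHAD-P9 to 7.65 in Journey, and GATA6 had a difference of -0.29 (SE 0.329).

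Limb and body wall genes lay on both sides of the percentile. Of 12 measured, 4 lay above the percentile in all dogs, PRRX1, PRRX2, IRX3 and TBX18, and the forelimb gene TBX5 in none. IRX5 lay between 4.86 in CHAD-P9 and 8.46 in CHAD-G8, with a difference of 0.48 (SE 0.715). PRRX1 had 0.12 (SE 0.244), PRRX2 0.34 (SE 0.295) and LMX1B, which marks the upper side of the limb, -0.05 (SE 0.158), and 0 of 10 tested passed at an unadjusted p under 0.05. TBX15, a trunk skin and limb gene, was above the percentile in CHAD-G6 alone, at 5.59. Of 11 cranial and neural genes measured, 5 lay above the percentile in all dogs and 4 in none. The forebrain genes OTX2 and EMX2 were below it in all dogs, while their paralogs OTX1, at 5.21 to 5.52, and EMX1, at 5.22 to 5.83, and the eye and brain gene PAX6, at 6.22 to 7.90, were above it in all. MSX2 had a difference of 1.16 (SE 0.584, limma adjusted p = 0.776), with 3.78 to 6.88 in Golden Retrievers and 4.18 to 4.73 in non-Golden Retrievers. DLX2 had -0.05 (SE 0.210) and PAX6 0.59 (SE 0.334), and 0 of 6 tested passed at an unadjusted p under 0.05. The median difference was 0.01 for the cofactors, -0.03 for the Polycomb list, -0.09 for the Trithorax list, 0.02 for the upstream regulators, -0.09 for the spleen list, 0.08 for the limb list and 0.13 for the cranial list, beside -0.02 over all tested probe sets.

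**Figure D5:**
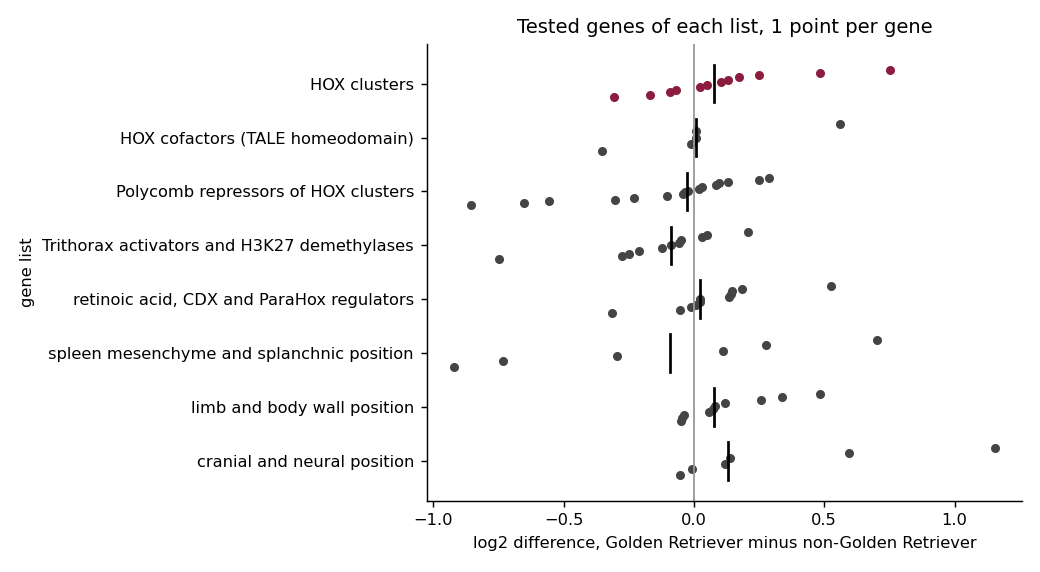
Fitted breed difference in log2 units, Golden Retrievers less the other breeds (horizontal axis), of the tested HOX genes and of the tested genes in each list of cofactors, regulators and position genes (vertical axis), with 1 point per gene and a black line at the median of each list. HOX differences run from -0.31 to 0.75, and the widest spread of the other lists, from -0.92 to 0.70, is in the spleen list, with MSX2 at 1.16 the highest single point.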

How the data were processed

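RNA of 10 cultures, 1 per dog, was hybridized to Affymetrix Canine_2 arrays. The authors deposited log2 signals from RMA (with affy, per the labels), and versions are not given in the sources used here. The authors' filters on absent and little varying probe sets were not applied to the deposited table, and detection calls were not used here. From it, 111 control probe sets were left out. Genes were named from GEO's platform annotation: 29254 probe sets had 1 gene, 439 several and 13231 none, and 27680 of the first matched the assembly's table by gene number. Where a gene had several probe sets, the one of highest mean stood for it.

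On at least 3 of the 9 purebred arrays, 26787 probe sets exceeded that array's 40th percentile, and these were fitted with limma 3.58.1 in R 4.3.3 (lmFit and eBayes, two-sided, Benjamini-Hochberg over all of them), with breed group from the labels as the sole term, and HOX rows were read from this fit. The fit was checked on simulated data. Sex and age come from the study's description of the dogs. Dogs are separate animals, and no culture of normal cells was used here. The number of arrays limits the precision, and an interval covers the spread between dogs only.

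Per-dog values were given for the 2 genes of highest mean signal in each cluster, for the 8 of widest range among those above the percentile in at least 3 dogs, for the 6 of smallest p and for any whose groups did not overlap. From every other list the genes of smallest p, highest and lowest difference and highest mean were named, and further genes were named after their values were seen. The members, lists and rules were chosen with earlier results of these data known. Alternatives were no filter, the more variable part of the probe sets, the methods' t-test, a variance trend, arrays centred on the median, leaving out each dog, males only, sex as a covariate, the F1 dog in either group, and other percentiles. Leaving out Dal-4 and CHAD-G4 together was chosen after seeing the data. Tables were handled with Python 3.11.15 and pandas 2.3.3. No sequences were used here.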

Additional observations from a re-analysis of the deposited data

Results flagged for a closer look

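In the Golden Retriever group, 4 of 30 HOX probe sets had 1 dog far from the other 5, judged by its gap to the nearest dog over the range of the group, a rule that chance meets in about 1 of 20 groups. Frog had 6.53 at the HOXD10 probe set under gene 488415, against 3.05 to 3.43 in the others, and 5.21 at the one under gene 609973, against 3.99 to 4.18. Frog also had 3.92 at HOXB1, against 3.57 to 3.64, with all dogs below the 40th percentile of the array. Tucker had 7.79 at HOXB4, against 6.77 to 7.13. The cause of these values was not tested.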

How the results depend on the processing

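The count of HOX probe sets at an adjusted p under 0.05 was 0 in every alternative run, and the smallest adjusted p among them was 0.498, for HOXB4 without CHAD-P9. At an unadjusted p under 0.05 the HOX count was 0. Leaving out 1 dog gave 0 to 2, with 2 without Joey, where 1571 of 26787 probe sets over the array passed. The median difference was -0.08 to 0.18 with 1 dog left out, -0.08 without CHAD-P9, and 0.17 with the arrays centred. Over all probe sets, 485 of 1695 at an unadjusted p under 0.05 were higher in Golden Retrievers, and 699 of 1523 with the arrays centred. The number of HOX genes at or below the percentile in all dogs was 4 at the 30th percentile. The number above it in all dogs was 5 at the 50th, and shares over all named genes were not computed at these cuts. With 1 dog left out and the 40th percentile, the HOX numbers were 7 to 8 and 9 to 10. Differences changed sign for HOXA2 in males only (0.44) and with sex as a covariate (0.44), and for HOXC4 likewise (0.031 and 0.031). Every non-Golden Retriever is recorded as male, so these settings give the same difference by design and are not separate checks. Both take Dal-4 as male. The sign also changed for HOXC4 without Dal-4 and CHAD-G4 together (0.060), and for HOXA4 with the F1 dog as a Golden Retriever (-0.010) and without Dal-4 and CHAD-G4 (-0.10). It changed for HOXA5 with the F1 dog as a Golden Retriever (-0.26) and for HOXA7 with the F1 dog as a non-Golden Retriever (0.10). With 1 dog left out, the differences ran from -0.41 to 0.064 for HOXA2, -0.19 to 0.29 for HOXA4, -0.70 to 0.73 for HOXA5, -0.92 to 0.70 for HOXA7, -0.078 to 0.44 for HOXB6, -0.24 to 1.54 for HOXB7 and -0.25 to 0.069 for HOXC4. HOXA9 (0.13 to 0.21), HOXB4 (0.20 to 0.65) and HOXC12 (0.07 to 0.25) did not change sign with 1 dog left out. The cause was not tested. No paired analysis was possible because the labels pair no dogs across groups and replicate numbers only name dogs.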
